A study of Homo sapiens with 18 samples.

Results

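Regions of acetylated chromatin were described whose summit lay inside a gene body, more than 5 kb from protein-coding gene starts. The cells were HEK293T, a human embryonic kidney line, with and without valproic acid (VPA), which inhibits class I and IIa histone deacetylases. Acetylation of lysine 27 of histone H3 (H3K27ac) was measured by ChIP-seq in 3 untreated libraries (CTRL) and in 3 libraries of cells given 1 mM VPA for 1 day, and CTCF was measured in 3 further libraries of each condition. Both conditions came from 1 cell line, and the labels number the replicates without saying that they were separate cultures, so p-values measure only the spread between these libraries. The peaks of the 6 H3K27ac libraries were merged into 55382 regions wherever they shared 1 bp, and the summit of a region was that of its peak with the lowest q-value. Of these, 19406 regions (35.04%) were members, with a summit inside a protein-coding gene body, more than 5 kb and at most 100 kb from the nearest protein-coding transcription start site (TSS), and more than 1 kb from every lncRNA TSS. For comparison, 9638 regions lay between protein-coding genes at the same 5 to 100 kb from a TSS under the same lncRNA filter (intergenic regions), and 10103 lay within 1 kb of a protein-coding TSS (promoter regions). All of them are on chromosomes 1 to 22 of hg38.

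H3K27ac is laid down by the acetyltransferases p300 and CBP and removed by histone deacetylases, and it marks active promoters and active enhancers. Away from promoters it is used as a mark of active enhancers, many of which lie in introns, where they may act on the host gene or on another gene nearby. It also spreads into the bodies of strongly transcribed genes. The files hold peaks only, so a region without a peak was below the caller's q-value threshold of 0.05 in that library and is not shown to be free of acetylation.

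The cell line was checked at promoters fixed as markers. NEFL, NEFM and VIM had an H3K27ac peak within 1 kb of the TSS in all 6 libraries, and LIN28B, PAX2 and SALL2 had one in 0 of 6, so 3 of the 6 chosen HEK293T genes were acetylated there. Of 10 genes that mark other cell types, 9 had no such peak in any library and APOA1 had one in 1 library. The files list between 26299 and 40992 H3K27ac peaks per library. Background coverage recovered from the peak values lay between 3.51 and 3.95 fragments in all 6 libraries, whereas both replicate 1 libraries stood apart in enrichment. Over regions with a peak in all 6 libraries the median fold enrichment was 7.63 and 7.52 in CTRL and VPA replicate 1, against 15.3 to 17.2 in the other 4 libraries.

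Sequence is shown for 6 members described further on, chosen because the window of 150 bases to either side of their summit holds 1 of the searched transcription factor motifs. Each runs 5′ to 3′ on the plus strand of hg38, and the capitals mark the motif match nearest the summit, which may be read on either strand. The motifs were the E-box CAGCTG, the GATA motif AGATAA, the SP/KLF motif GGGCGGGG, the AP-1 motif TGANTCA and the SOX motif ACAATGG. The first 4 belong to members present in all 6 libraries and lower with VPA, and the other two to members found only with VPA.
ENSG00000286185 E-box motif, chr1:149464255-149464340: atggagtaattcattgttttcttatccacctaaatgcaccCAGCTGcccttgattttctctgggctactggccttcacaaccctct
TCF7L2 GATA motif, chr10:113027689-113027774: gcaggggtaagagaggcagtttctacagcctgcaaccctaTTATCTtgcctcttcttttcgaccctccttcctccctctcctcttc
PRDM16 SP/KLF motif, chr1:3393812-3393899: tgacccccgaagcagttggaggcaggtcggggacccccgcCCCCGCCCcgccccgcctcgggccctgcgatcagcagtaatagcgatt
BCL11B AP-1 motif, chr14:99253860-99253946: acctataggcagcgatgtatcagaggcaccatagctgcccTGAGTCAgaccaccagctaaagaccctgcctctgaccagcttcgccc
ELOA SOX motif, chr1:23751173-23751259: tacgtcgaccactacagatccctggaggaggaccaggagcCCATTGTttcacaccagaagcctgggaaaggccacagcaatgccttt
GRIK5 E-box motif, chr19:42028564-42028649: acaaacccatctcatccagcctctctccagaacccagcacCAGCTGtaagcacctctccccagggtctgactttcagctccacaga
The same motifs are common. Among all 55382 regions, 16.1% of these summit windows hold the E-box, 9.88% the GATA motif, 7.69% the AP-1 motif, 7.45% the SP/KLF motif and 2.28% the SOX motif. In members the shares were 15.5%, 10.6%, 8.58%, 3.82% and 2.40% in the same order. A match is a description of the letters, and no binding was measured.

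The members were held by 7060 of 19111 protein-coding genes, and 1240 members lay in more than 1 gene body. Their host genes had a median of 2 members, 3058 had a single one, and 220 genes with at least 10 held 2943. By the canonical transcript of the host, 16309 members (84.0%) had their summit in an intron and 7013 of these were in the first. Another 572 lay in a coding exon, 579 in a UTR exon and 1946 within the gene body but outside the canonical transcript. The nearest TSS was that of the host gene in 71.9% of members, with a median distance of 22.7 kb. Some members lay beside a start that the rule did not count, since 9.42% were within 1 kb of the start of some protein-coding transcript.

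More members had a peak after VPA. In CTRL, 6003, 6547 and 6576 members had a peak in replicates 1, 2 and 3, and with VPA the counts were 10985, 11780 and 11253. Every VPA library was above every CTRL library, and the means were 6375 ± 323 and 11339 ± 404 (SD, n = 3), a ratio of 1.78. Intergenic regions went from a mean of 3329 to 6262 (ratio 1.88), while promoter regions went from 9294 to 9583 of 10103 (ratio 1.03). The exact two-sided permutation test over the 6 libraries gave p = 0.1 for the rise of the members, the smallest p that 3 libraries against 3 allow (adjusted p = 0.163 over 13 tests), and 0.25, again the smallest, when libraries were paired by replicate number.

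**Figure D1:**
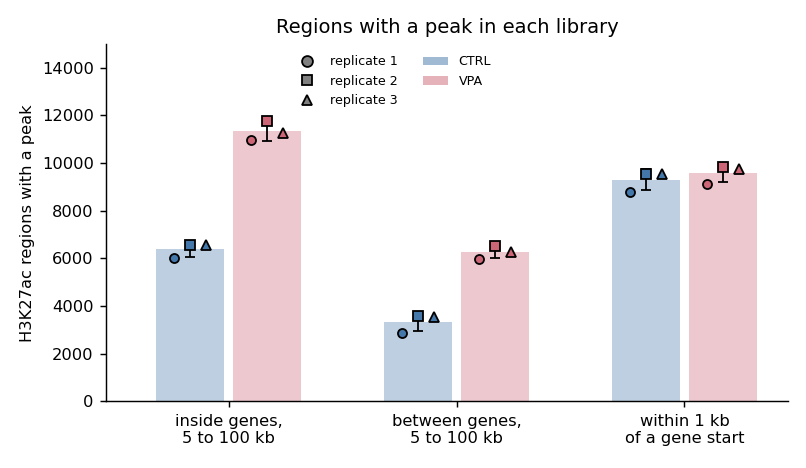
H3K27ac regions with a peak in each library, for members (inside genes, 5 to 100 kb from a TSS), intergenic regions at the same distances and promoter regions; bars are means, error bars SD (n = 3) and symbols single libraries. The 3 VPA libraries have 10985 to 11780 members and the 3 CTRL libraries 6003 to 6576, while promoter counts differ little.

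The larger count went with longer peak lists. When each list was limited to its 26299 peaks of lowest q-value, the length of the shortest list, 6003, 5391 and 5293 members had a peak in CTRL and 5796, 5837 and 5528 with VPA. The groups then overlapped, with a difference of 158 members (exact permutation test, p = 0.6). Members made up 24.6 ± 0.922% of the regions with a peak in CTRL and 30.2 ± 1.36% with VPA (n = 3, exact permutation test, p = 0.1), and in lists of equal length 23.1% and 22.9%. Most of the difference in count thus came from VPA peaks ranked below that length. Peaks in members covered 7.13 ± 1.08 Mb in CTRL and 12.4 ± 1.88 Mb with VPA. Over the full lists their median width was 719 ± 98.8 bp and 729 ± 114 bp, and the groups overlapped (n = 3, exact permutation test, p = 1). In lists of equal length the median width averaged 831 bp in CTRL and 1215 bp with VPA, and the groups again overlapped (exact permutation test, p = 0.2). Peaks in members then covered 6.67 and 8.92 Mb (exact permutation test, p = 0.1).

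Against the classes at other places, members rose with VPA relative to promoters but did not rise relative to intergenic regions. In CTRL a mean of 9294 of 10103 promoter regions and 6375 of 19406 members had a peak, so promoter counts had little room to rise. The log2 ratio of members to promoter regions was -0.55, -0.55 and -0.54 in CTRL and 0.27, 0.26 and 0.20 with VPA, a difference of 0.79 with no overlap (exact permutation test, p = 0.1). It was 0.04 in lists of equal length. The log2 ratio of members to intergenic regions was 1.06, 0.88 and 0.89 in CTRL and 0.87, 0.85 and 0.84 with VPA, a difference of -0.09 (exact permutation test, p = 0.1). CTRL replicate 1 lay apart from the other CTRL libraries, and the difference was -0.03 without it. In lists of equal length the ratio to intergenic regions was 1.06, 0.81 and 0.83 in CTRL and 0.70, 0.63 and 0.65 with VPA. That difference was -0.24 with no overlap (exact permutation test, p = 0.1).

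The ratio of VPA to CTRL depended on the distance from the TSS. Inside genes it was 1.03 for regions within 1 kb of a TSS and 1.23 at 1 to 2 kb, and it was between 1.80 and 1.98 in every bin from 2 to 50 kb. It was lower again farther out, with 1.57 at 50 to 100 kb and 1.41 at 100 to 200 kb, in each of the 3 replicate numbers. On either side of the 5 kb limit, 914 regions at 4 to 5 kb and 946 at 5 to 6 kb had the same ratio of 1.85, so the limit does not fall at a step in the data. Within 1 kb, 6080, 6614 and 6600 of 6937 regions had a peak in CTRL replicates 1, 2 and 3, which left little room for a rise.

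**Figure D2:**
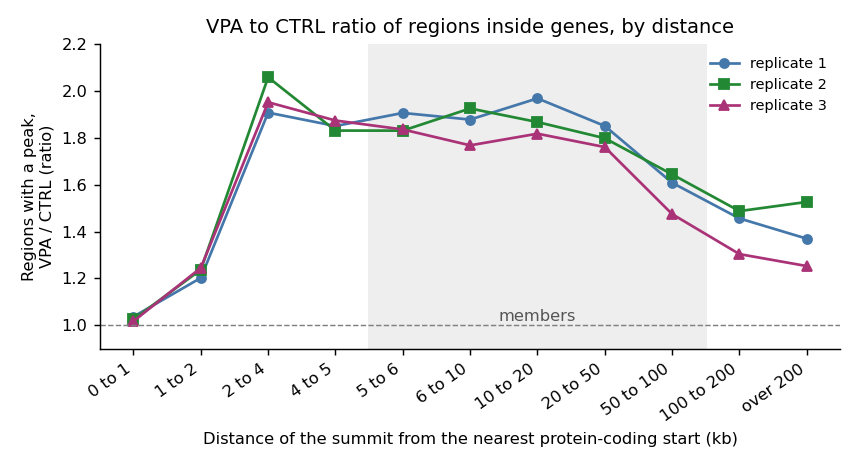
Ratio of VPA to CTRL in the number of regions inside protein-coding genes with a peak (y axis), by distance of the summit from the nearest protein-coding TSS in kb (x axis), for the 3 replicate numbers; the shaded bins hold the members. All 3 lines are near 1 within 1 kb, lie between 1.76 and 2.06 from 2 to 50 kb, and are lower beyond 50 kb.

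Most members were not shared by all libraries. A peak was present in all 6 libraries in 3400 members (17.5%) and in a single library in 7997 (41.2%), compared with 86.0% and 2.97% of promoter regions and 20.1% and 34.5% of intergenic regions. Of the members seen in 1 library, 617, 289 and 321 belonged to CTRL replicates 1, 2 and 3 and 2960, 2075 and 1735 to the VPA replicates. The median merged width was 409 bp for members in 1 library and 2114 bp for those in all 6, while the median distance to the TSS differed little (22.3 and 23.4 kb). Members in all 6 libraries had more G and C bases (56.5% against 50.0%), more often held the SP/KLF motif (9.71% against 1.69%) and more often lay within 1 kb of a protein-coding transcript start (29.9% against 3.88%).

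Repeat sequence was frequent at the summits of members. The most frequent 16-base words in windows 2 kb beside the summits of all regions were used as markers, the first of them CAAAGTGCTGGGATTA, which is found in Alu elements, the most abundant short interspersed repeat of the human genome. At least 1 of the 20 words was present in the summit window of 36.6% of members, 27.1% of intergenic regions and 2.43% of promoter regions, and in 23.4%, 24.3% and 21.1% of the windows 2 kb to either side. The share was lower in members shared by more libraries, from 45.0% of members in 1 library to 22.2% of members in all 6, which was the level of their flanks (22.1%). Of the members with a peak in a given library, 33.4%, 22.3% and 23.3% held a word in CTRL replicates 1, 2 and 3 and 41.0%, 30.4% and 29.6% with VPA. Each VPA library was above the CTRL library of its number, and the groups overlapped (exact permutation test, p = 0.3). The share was higher in members than in intergenic regions in 6 of 6 libraries, by 7.33 percentage points on average (exact sign-flip test over libraries, p = 0.031, adjusted p = 0.135). The libraries share many regions, and a word belongs to the region, so these 6 differences are not independent. Without the regions that held a word, the VPA counts were 6476, 8200 and 7918 members and the CTRL counts 3997, 5085 and 5044, a ratio of 1.60. Whether reads that map to several copies take part in these values was not tested.

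CTCF, which binds insulators and anchors chromatin loops, was less frequent at members than between genes. Of the member peaks, 19.0%, 23.4% and 22.2% overlapped a CTCF region of the same condition in CTRL and 18.8%, 23.7% and 24.7% with VPA, so the conditions overlapped (exact permutation test, p = 0.6). The share was below that of intergenic peaks in 6 of 6 libraries, with a difference of -8.90 ± 0.901 percentage points (SD over libraries; exact sign-flip test, p = 0.031, the smallest that 6 libraries allow, adjusted p = 0.135), and with 1 set of CTCF regions for all libraries the direction was the same. Member peaks were also narrower, with a median 40.5 bp below that of intergenic peaks (exact sign-flip test, p = 0.031, adjusted p = 0.135), but 34.9 bp above it in lists of equal length (p = 0.3125). The libraries share many regions, so neither of these sign-flip tests rests on independent values. By presence, 28.0% of members in all 6 libraries overlapped a CTCF region found in at least 4 of 6 CTCF libraries, against 13.2% of those in 1 library. The former were also wider (median merged width 2114 bp against 409 bp), which leaves more bases for an overlap, and the part of width was not tested.

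**Figure D3:**
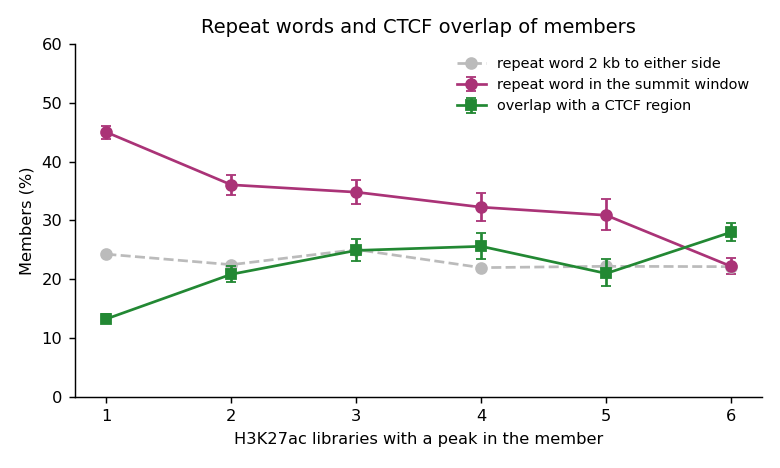
Percentage of members (y axis) with a repeat word in the summit window, with one in the windows 2 kb to either side, and with an overlapping CTCF region, by the number of H3K27ac libraries with a peak (x axis); error bars are 95% Wilson intervals, which cover counting error only. The repeat share falls from 45.0% in 1 library to 22.2% in 6, and CTCF overlap is lowest, 13.2%, in members of 1 library, which are also the narrowest.

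The level of acetylation could be compared in the 3400 members with a peak in all 6 libraries. Fold enrichment, the authors' ratio of the fragment pileup at a summit to its local background, was compared on the log2 scale with limma over all 18407 regions present in all 6 libraries. The median log2 fold enrichment of the members was 2.54, 2.87 and 2.88 in CTRL and 2.73, 3.03 and 3.03 with VPA. It was higher with VPA within each replicate number, by 0.18, 0.16 and 0.15, while VPA replicate 1 lay below CTRL replicates 2 and 3, so the groups overlapped (exact permutation test, p = 0.3). Without the replicate number in the model, limma called 0 members higher and 0 lower at an adjusted p of 0.05, as it called 0 of all regions tested (background 0% in each direction), with 46 members higher and 13 lower at an unadjusted p under 0.05. In simulated data of the same size, same-numbered libraries shared a deviation that was equal in every region and came from medians over all regions. The noise level there was set, not measured. On those data this fit recovered 0% of changes of 1 on the log2 scale. The CTRL medians over all regions were 2.93, 4.10 and 4.03, so replicate 1 stood farther apart there than in the members. What this fit could detect in the members was thus not measured, and its count of 0 is not read as an absence of change.

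With the replicate number as a block, limma called 340 members higher and 202 lower with VPA. Across all regions tested the same fit called 5.14% higher and 9.21% lower, against 10.0% and 5.94% of the members. The median log2 change was 0.06 in the members and -0.14 in all regions tested. The counts were 112 and 59 without VPA replicate 3, 126 and 62 without CTRL replicate 3, and 191 and 153 without VPA replicate 1. The split changed with the scaling. After centring each library at its median, 451 members (13.3%) were higher and 158 (4.65%) lower, against 6.87% and 6.08% of all regions tested. With pileups over a single background coverage per library, 829 members (24.4%) were higher and 1035 (30.4%) lower, against 13% and 50.9% of all regions. In that scaling the median of all regions lay at -0.28 and that of the members at -0.03, so members stood above the median of all regions by 0.25 there, by 0.20 in the main scaling and by 0.06 after quantile normalisation.

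Members that were higher and members that were lower differed in level and sequence. In CTRL the median fold enrichment was 4.26 in the 340 higher members and 21.0 in the 202 lower members, compared with 6.71 in the 2858 not called, and over the 6 libraries the medians were 5.86, 15.6 and 6.95. The call itself uses these values. The summit windows of the lower members had more G and C bases (63.4% against 51.3%), more often held the SP/KLF motif (18.3% against 4.12%) and less often a repeat word (4.46% against 35.6%). A start of some protein-coding transcript lay within 1 kb of 88 of the lower members and 35 of the higher. Overlap with CTCF was 36.6% in the lower and 29.4% in the higher members, with median merged widths of 2651 and 2068 bp. In all 3 replicate pairs the change had the called direction in 337 of the higher and 202 of the lower members. These shares describe members chosen by the test, and their part in the result was not tested.

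**Figure D4:**
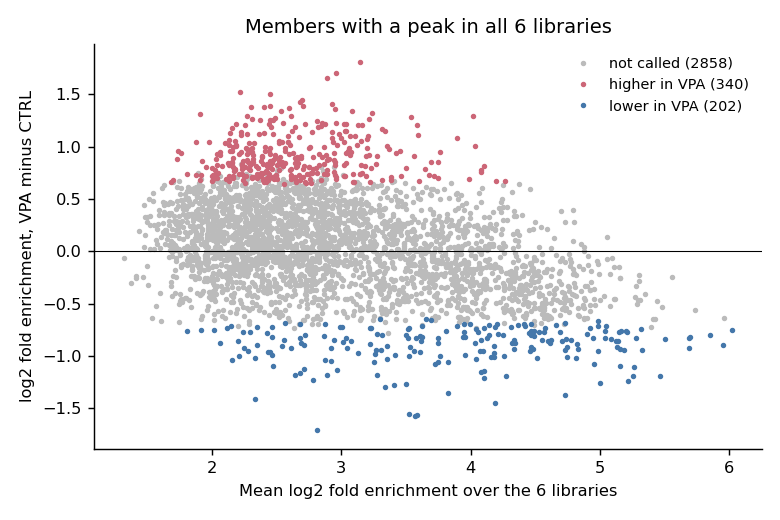
Difference in log2 fold enrichment between VPA and CTRL (y axis) against the mean log2 fold enrichment over the 6 libraries (x axis) for the 3400 members with a peak in all 6; colours mark the 340 members called higher and the 202 called lower by limma with the replicate block. Both sets span wide ranges of mean log2 enrichment, 1.68 to 4.27 in the higher members (median 2.55) and 1.81 to 6.02 in the lower (median 3.96).

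The members with the clearest rises had low enrichment in untreated cells, but they were chosen by a change that is computed from those same values. In DNAJC15, which encodes a mitochondrial co-chaperone, a member in exon 6, within the UTR and 87.1 kb from the TSS, had a fold enrichment of 4.11, 5.29 and 4.85 in CTRL and 13.9, 18.1 and 17.9 with VPA. All VPA values were above all CTRL values, and the log2 difference was 1.81 ± 0.207 (SE; limma with block, adjusted p = 8.35e-04). In ABCB5, an ATP-binding cassette transporter gene, a member over coding exon 26 rose from 4.11, 5.5 and 3.56 to 14.3, 17.3 and 11.1 (log2 difference 1.70 ± 0.207, adjusted p = 0.0015), and it overlapped a CTCF region. The member in PLEKHO1, which encodes a pleckstrin homology domain protein, rose from 5.96, 4.24 and 2.85 to 15.7, 12.5 and 11.6. In intron 2 of CDK12, the kinase gene for a regulator of transcription elongation, a member with a repeat word rose from 2.69, 2.13 and 3.57 to 9.74, 8.89 and 5.60. These 4 were among the 5 rises with the smallest unadjusted p without the block, from 0.0035 to 0.0133, with adjusted p = 1, and all 4 passed with the block, also after median centring, quantile normalisation or with recovered pileups.

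Further large rises with the block lay in SLC6A17, a neuronal amino acid transporter gene, RBM27, which encodes an RNA-binding protein, DTNB, the gene of dystrobrevin beta, and TGFBR3, which encodes the TGF-beta co-receptor betaglycan. Their log2 differences were 1.45, 1.43, 1.39 and 1.39. For SLC6A17 the groups came close, since CTRL replicate 1 was at 8.17 and the VPA libraries were at 13.6, 9.07 and 9.98. A further one lay in the unnamed gene ENSG00000286022 (1.41). Among the rises named here, the members in CDK12, RBM27, TGFBR3 and ENSG00000286022 held a repeat word.

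The largest falls included introns of transcription factor genes. In TCF7L2, the nuclear effector gene of Wnt signalling, a member in intron 4 fell from 27.9, 13.9 and 19.9 in CTRL to 12.4, 4.62 and 5.27 with VPA (log2 difference -1.56 ± 0.220, limma with block, adjusted p = 0.00257). In PRDM16, a regulator of brown fat and haematopoietic stem cells, a member in intron 4 fell from 12, 25.6 and 28.2 to 3.42, 8.68 and 11.1, with an SP/KLF match beside its summit. In BCL11B, a T cell and neuronal transcription factor gene, a member in intron 2 fell from 19.2, 17.6 and 11.9 to 7.34, 6.06 and 6.06. A member of 7365 bp in GATA3, just past the 5 kb limit, fell from 13.0, 53.1 and 39.6 to 5.35, 18.7 and 13.4, where VPA replicates 2 and 3 overlapped CTRL replicate 1. The groups did not overlap in TCF7L2, PRDM16 or BCL11B, and each member fell within every replicate number.

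Falls of like size lay in FAM120A (-1.56), GFOD1 (-1.41), ART1 (-1.37) and CROCC (-1.36), the last of which encodes the ciliary rootlet protein. The member in FAM120A went from 36.1, 13.5 and 18 to 11.3, 8.41 and 3.56. The largest fall of all, -1.71, was in ENSG00000286185, which lies in a stretch of chromosome 1 beside NBPF19, and because NBPF genes are near-identical copies its reads may belong to another copy. By unadjusted p without the block, the members in ENSG00000286185, TCF7L2, PRDM16, FAM120A and BCL11B came first among the falls, from 0.00868 to 0.0262, with adjusted p = 1. The tenth large fall was in ENSG00000288637 (-1.28), at a UTR exon 0.50 kb from a transcript start.

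**Figure D5:**
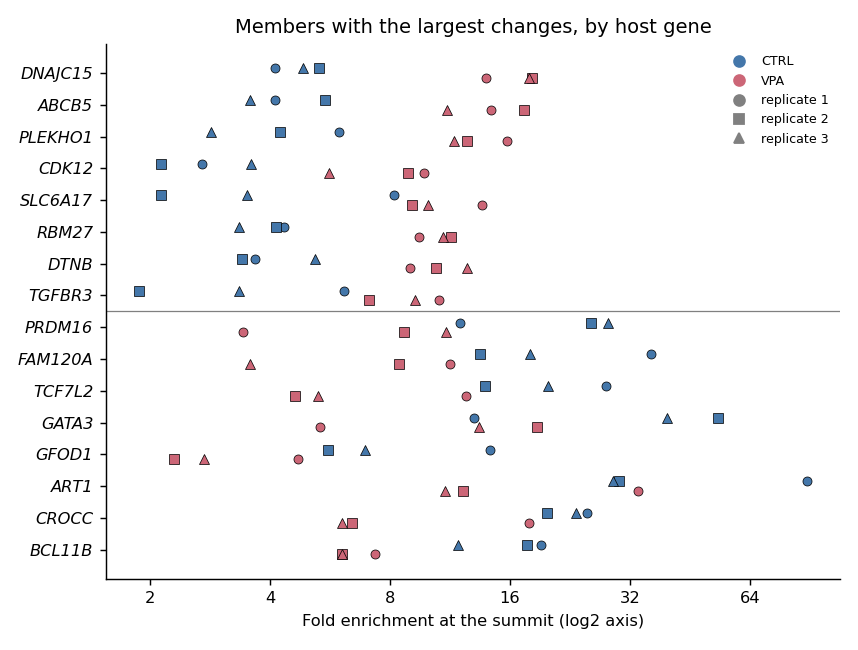
Fold enrichment at the summit (x axis, log2 scale) in each of the 6 libraries for the members with the largest rises (above the line) and falls (below it) by limma with the replicate block, for host genes named in the text by symbol. In DNAJC15 and ABCB5 the VPA libraries lie above all CTRL libraries, and in TCF7L2, PRDM16 and BCL11B below them.

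In 1 gene the called members were copies of 1 sequence. CCDC200 on chromosome 17 held 10 of the 202 lower members, each with 1 or more annotated genes for the U2 small nuclear RNA, a part of the spliceosome, and the median distance between neighbouring summits was 6.15 kb. Of the 31-base words in these members, 82.3% to 99.7% recurred in another of the 10. Their fold enrichment was 4.94 to 42.2 in the CTRL libraries and 2.86 to 18.9 with VPA, and their log2 differences lay between -1.15 and -0.71. Since reads of near-identical copies cannot be assigned with certainty, they amount to 1 observation, and 192 lower members lay in other genes. No other gene had more than 4 called members in 1 direction. SEMA3C, which encodes a secreted guidance cue, had 4 higher members of 6 tested, with log2 differences of 0.96, 1.09, 1.08 and 0.91, and all 4 were in intron 2. PPFIA3, the gene of the presynaptic scaffold liprin alpha 3, had 3 higher members of 5, at 0.001, 0.528 and 1.934 kb from a protein-coding transcript start. None of them passed after quantile normalisation with the block (adjusted p = 0.0810 to 0.221) or in limma without the block and both replicate 1 libraries (0.0823 to 0.309). In SEMA3C 3 and 2 of the 4 passed in these fits, and in CCDC200 8 and 6 of the 10. In 14 genes some members were higher and others lower.

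Members that appeared only with VPA were more numerous than those lost. All 3 VPA libraries, and no CTRL library, had a peak in 896 members (4.62%, against 4.12% of all regions, 7.52% of intergenic regions and 0.396% of promoter regions), which is close to the share over all regions. The reverse held for 36 members (0.186%, against 0.139% of all regions). In lists of equal length the counts were 167 and 95, and without regions that hold a repeat word 512 and 31. With fewer libraries required, the count only with VPA was 2138 without VPA replicate 1 and 1368 without VPA replicate 3. The count only in CTRL was 127 without CTRL replicate 1, 66 without VPA replicate 1, and 59 and 60 without CTRL replicates 2 and 3. Members only with VPA had a median merged width of 1044 bp. A repeat word was present in 42.9% of them and in 13.9% of the 36 found only in CTRL, and a CTCF region overlapped 29.8% and 2.78%.

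By rank of q-value within its library, the first 10 of the members found only with VPA were in JRKL, RAD9B, OTOGL, CERS4, ELOA, ZSWIM4, GRIK5, OTOP1, SETD7 and CDH5. The member in JRKL had a fold enrichment of 5.04, 11.0 and 9.74 and a repeat word. That in RAD9B, which encodes a paralogue of a DNA damage checkpoint protein, was at 5.90, 6.98 and 6.14. Those in OTOGL, a gene of the inner ear matrix, and CDH5, the gene of vascular endothelial cadherin, were at 6.19, 5.94 and 11.7 and at 8.12, 5.61 and 6.0. Coding exon 4 of ELOA, which encodes the elongation factor elongin A, carried a member at 10.0, 6.28 and 8.01. In GRIK5, a kainate receptor subunit gene, the values were 11.2, 4.31 and 4.87, and in SETD7, a lysine methyltransferase gene, 10.0, 5.81 and 5.62. Of the 10, those in JRKL, RAD9B, CERS4 and ZSWIM4 held a repeat word, and those in JRKL, OTOGL, ELOA, GRIK5 and CDH5 overlapped CTCF.

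The first 5 members found only in CTRL were in TRIM9, a brain ubiquitin ligase gene, NOS1AP, which encodes an adaptor of neuronal nitric oxide synthase, SRGAP2B, PCSK6, a proprotein convertase gene, and SCP2, the sterol carrier gene. They were modest peaks. The member in TRIM9 had a fold enrichment of 4.75, 7.10 and 5.58 and that in NOS1AP 5.19, 3.38 and 4.50. SRGAP2B is a near-identical copy of SRGAP2, so its values (4.75, 5.86 and 4.25) are uncertain.

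The members of highest rank over all 6 libraries were in AHRR, the repressor gene of the aryl hydrocarbon receptor, RPL36, HNRNPH1, PRRC2B and DEGS1. The last 4 had their summit within 1 kb of the start of a protein-coding transcript that the rule did not count. The summit in AHRR lay 5.36 kb from the nearest such start. In AHRR the fold enrichment was 28.0, 113 and 103 in CTRL and 17.1, 49.5 and 67.9 with VPA, a log2 difference of -0.83 (limma with block, adjusted p = 0.0226) that was -0.26 after quantile normalisation (adjusted p = 0.585). The widest member, 61676 bp across the HOXA cluster of body-plan genes with its summit in HOXA9, was at 51.0, 118 and 100.3 in CTRL and 35.9, 72.2 and 48.5 with VPA. Other wide members were in PRRC2B (20307 bp), NR2F2 (19789 bp) and BMF (14316 bp). In NR2F2, a nuclear receptor gene, the member fell from 25.3, 74.7 and 64.6 to 10.5, 30.1 and 28.2 (log2 difference -1.26 ± 0.207, adjusted p = 0.00406). Its summit lay 0.198 kb from a protein-coding transcript start.

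In most of the genes with the largest number of members, more of them had a peak with VPA, as over all members (ratio 1.78). Every VPA library was above every CTRL library in 959 of the 7060 host genes and below every one in 13. In the 3058 genes with a single member, being above means only that this member was found only with VPA. Regions with a peak also rose over all regions (ratio 1.45), and no such gene count was made outside the members. CELF1, a splicing regulator gene, had 27 members, with 12, 7 and 9 in CTRL and 22, 16 and 16 with VPA. KANSL1 and UBE2R2 had 25 each, SMARCC1 24, GATAD2B 23, and ARID4B, KDM2A, SKAP1 and SPEN 22 each. KANSL1 encodes a subunit of an acetyltransferase complex, SMARCC1 one of the SWI/SNF remodeller and GATAD2B one of the NuRD deacetylase complex. The conditions overlapped in SMARCC1 and SPEN, and in KDM2A the highest CTRL library and the lowest VPA library were both at 10. In SPEN, 12, 9 and 16 members had a peak in CTRL and 16, 11 and 13 with VPA. Members with a repeat word made up 19 of 27 in CELF1, 19 of 25 in KANSL1, 21 of 25 in UBE2R2 and 21 of 23 in GATAD2B, and 9 of 22 in SKAP1, the lowest share of these genes.

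Among genes for histone deacetylases, acetyltransferases and their partners, 22 of 32 annotated genes held 133 members. In CTRL 48, 51 and 52 had a peak and with VPA 74, 88 and 80, a ratio of 1.60 against 1.78 for all members. CREBBP, the gene of the acetyltransferase CBP, had 16, with 8, 6 and 4 in CTRL and 11, 11 and 10 with VPA. Of 25 tested, 1 was higher and 1 lower with the block, against 5.14% and 9.21% of all regions tested, and neither passed after quantile normalisation. The lower member was in intron 1 of HDAC7, a class IIa deacetylase gene, 0.187 kb from a protein-coding transcript start. It went from 7.40, 19.3 and 24.9 to 5.02, 12.4 and 10.0 (log2 difference -0.83, adjusted p = 0.025, and 0.0703 after quantile normalisation). Another 9 of the 133 were found only with VPA, against 4.12% of all regions and 4.62% of all members. Among them were 2 in KAT6B and 1 each in RERE, TRRAP, KAT6A and CHD7, and those in KAT6B, RERE and TRRAP held a repeat word.

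In the Wnt, Hippo, TGF-beta and Notch list, 34 of 38 genes held 155 members, with 52, 76 and 87 in CTRL and 81, 96 and 98 with VPA. The ratio of 1.28 was below that of all members. With the block, 5 of 34 tested members were lower and 1 was higher, against 9.21% and 5.14% of all regions tested, and the median log2 difference was -0.14 against 0.06 for all members tested. The lower members were in TCF7L2 (above), the receptor gene NOTCH2 (-1.10), the transcription factor genes TEAD1 (-0.90) and SMAD3 (-0.90), and CTNNB1, the gene of beta-catenin (-0.66, adjusted p = 0.0488). Of these, the summits in CTNNB1 and SMAD3 lay 0.017 and 0.485 kb from a protein-coding transcript start. The higher member was in the co-receptor gene LRP5 (0.83). After centring at the median, CTNNB1 and TEAD1 no longer passed (adjusted p = 0.0814 and 0.0525). After quantile normalisation 2 of the 6 passed, those in TCF7L2 and NOTCH2, whereas CTNNB1 was at -0.20 (adjusted p = 0.699) and TEAD1, SMAD3 and LRP5 had adjusted p = 0.0506, 0.0523 and 0.0920. A member in LEF1, another nuclear effector of Wnt signalling, was found only with VPA, at 6.63, 6.13 and 4.65, as was 1 in BMPR2. These 2 of 155 members compare with 4.12% found only with VPA over all regions. BMPR2, MAML2 and SKI had the most members, 10 each, and in MAML2 4, 8 and 8 had a peak in CTRL and 5, 5 and 7 with VPA.

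Lists of neuronal and matrix genes held fewer members. With the block 5.14% of all regions tested were higher and 9.21% lower, and these lists had 11 to 16 tested members each. For cell adhesion and axon guidance, 23 of 36 genes held 59 members (17, 30 and 35 in CTRL, 26, 43 and 46 with VPA, a ratio of 1.40 against 1.78 for all members), led by SLIT2 with 10. Of 12 tested 1 was lower, in the netrin receptor gene UNC5B, from 15.2, 42.9 and 30.8 to 9.34, 19.3 and 17.9. Synapse scaffolds, receptors and ion channels had 57 members in 23 of 37 genes (19, 28 and 27 in CTRL, 26, 46 and 47 with VPA, a ratio of 1.61). There 2 of 16 tested were higher, 1 of them in the scaffold gene DLGAP4 (0.96). Extracellular matrix and integrin genes had 53 members in 19 of 30 genes (15, 21 and 20 in CTRL, 26, 34 and 34 with VPA, a ratio of 1.68), led by the laminin gene LAMA4 with 9. In that list 2 of 11 tested were higher, in LAMC1 (0.98) and COL9A3 (0.76), and the rise in LAMC1 did not pass with pileups over a single background (adjusted p = 0.273). After quantile normalisation LAMC1 passed (adjusted p = 0.0414), whereas UNC5B, DLGAP4 and COL9A3 did not (0.138, 0.0587 and 0.148).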

How the data were processed

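H3K27ac and CTCF ChIP-seq libraries of untreated and VPA-treated HEK293T cells (3 each) were analysed as deposited peak lists; 6 input libraries were not analysed here. Per the study's methods, the authors aligned reads with Bowtie2 to hg38 and called peaks per library with MACS (MACS3 3.0.0a7 in the submitters' processing notes) at a q-value of 0.05; filters on multiply mapped reads are not given in the sources used here. The deposited columns are fold enrichment at the summit (a ratio of pileup to local background) and −log10 p-value and q-value. No counts were available, so no count model was used. The pileup and local background at each summit were recovered from fold and p-value, and the pileup was whole within 0.05 in 100% of peaks. The lists hold chromosomes 1 to 22.

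Members and gene lists were chosen with earlier results of these data known. Genes came from GENCODE release 44. The host gene was the gene whose body held the summit, with the nearest TSS where there were several. limma 3.58.1 (R 4.3.3) was fitted to log2 fold enrichment over 18407 regions with a peak in all 6 libraries, with Benjamini-Hochberg adjustment. It was tested on simulated data with an equal replicate deviation in every region and a set noise level. Of changes of 0.5 and 1 in 200 regions, 0% and 0% were recovered without the block. With the replicate number as a block, 72% and 100% were recovered. Members differed less between replicate numbers than all regions did, so these rates may not hold for them. Deviations of same-numbered libraries from their group means correlated at 0.87, 0.59 and 0.59 for replicates 1, 2 and 3, all above 0.1, so the numbers were taken to pair the libraries. CTRL replicate 2 correlated as well with VPA replicate 3 (0.61), and the labels give no shared culture or day. Values per library were compared by exact two-sided permutation tests over libraries, and members with intergenic regions by exact sign flips over 6 libraries, 13 tests in all, with Python 3.11.15 and scipy 1.17.1. The libraries share many regions, so the 6 values in a sign-flip test are not independent. CTCF regions were those found in at least 2 of 3 libraries of a condition. A library's rank of a peak was its percentile by −log10 q. Repeat words were the 20 most frequent 16-base words 2 kb beside summits, and GC content and motifs were read from windows of 150 bases to either side of summits.

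Named were the 5 members a direction with the smallest unadjusted p without the block, as none passed, the 10 highest-ranked members found only with VPA and 5 only in CTRL, the 5 highest ranks, the 5 widest, the 10 genes with most members and the genes with most members in each list. The 10 largest changes a direction with the block, the called members of the gene lists, CCDC200, SEMA3C and PPFIA3 and the repeat words were chosen after their values were seen. For the peak lists depth was not given as read numbers, and intervals cover counting error only. Some members and genes that this rule selects are not reported here.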

Additional observations from a re-analysis of the deposited data

How the results depend on the processing

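The number of members with a peak, their covered length, both log2 ratios and their median log2 fold enrichment kept their direction under every alternative run; their p was 0.1 to 1, and 3 libraries against 3 cannot go below 0.1. With lists of equal length the percentage of regions that are members changed by -0.225 points (main 5.56), the width difference to intergenic peaks was 34.9 bp, the GC difference 0.419 points, and 167 and 95 members were found only with VPA and only in CTRL. With peaks of −log10 q of at least 3 the width difference was -26.0 bp and the GC difference 0.0234 points. The median width difference between VPA and CTRL was 384 bp in lists of equal length (exact permutation test, p = 0.2). It was -12.7 bp with peaks near the summit and -0.167 bp without the lncRNA filter. Near the summit the width difference to intergenic peaks was -35.2 bp. The CTCF share of member peaks differed between VPA and CTRL by 5.40 points in lists of equal length (exact permutation test, p = 0.2). The GC difference was -2.58 points with all transcript starts, -0.427 with a limit of 10 kb and -0.810 without the lncRNA filter, each with an exact sign-flip p of 0.031 over libraries that share regions.

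Leaving out 1 library at a time gave a CTCF difference of -9.14 to -8.67 points and a width difference of -46.0 to -36.0 bp, where p cannot go below 0.0625; the replicate block gave -8.90 points and -40.5 bp, where it cannot go below 0.25. The median width difference ranged from -47.0 to 73.5 bp and the CTCF share from -0.379 to 2.70 points. Members found only with VPA ranged from 1124 to 2138 and only in CTRL from 46 to 127, since fewer libraries were then required. Members called higher with the replicate block ranged from 112 to 317 and lower from 59 to 178, lowest without VPA replicate 3 (112 and 59) and CTRL replicate 3 (126 and 62), and without VPA replicate 1 the higher were 191.

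Without the block limma called 0 members, but 266 higher and 278 lower with recovered pileups and 220 and 112 without both replicate 1 libraries; with the replicate block it called 340 and 202. With the block it called 111 and 70 after quantile normalisation and 829 and 1035 with recovered pileups, and 114 lower when all transcript starts were counted. The fits without both replicate 1 libraries, those that join the block with another setting, and those that follow were chosen after seeing the data. Without both replicate 1 libraries, 2461 and 170 members were found only with VPA and only in CTRL, the CTCF difference was -8.44 points and the width difference -31.3 bp; without repeat words 512 were found only with VPA. Of 13 members of the gene lists called with the replicate block, 11 passed after median centring, 3 after quantile normalisation and 12 with recovered pileups, each with the block. The causes were not tested. Peaks under the caller's threshold are not listed, so weak acetylation was not detectable.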
